A study of Mus musculus with 12 samples.

Results

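The MYC, MAX and MXD network was examined as 10 genes of the deposited mouse expression table, taken by symbol: the MYC paralogues *Myc*, *Mycn* and *Mycl*, their partner *Max*, the MXD repressors *Mxd1*, *Mxd3*, *Mxd4* and *Mxi1*, the related repressor *Mnt*, and the MAX-like factor *Mlx*. All 10 were among the 35013 genes of the table, and 9 of them were among the 13502 genes with enough reads to be tested; *Mycn* was not. The study grew KP1 cells, a mouse cell line labelled as lung adenocarcinoma (LUAD), carrying either an NRF2 construct or the empty vector (EV). Each line was exposed for 16 h to 5 nM romidepsin (ROM), a histone deacetylase inhibitor, or to the solvent DMSO, and poly(A)-selected RNA was sequenced. The 4 groups were NRF2 with romidepsin, EV with romidepsin, NRF2 with DMSO and EV with DMSO, with 3 replicate libraries each. All come from 1 cell line, and the labels give neither the promoter that drives NRF2 nor how many transductions were made. The p-values therefore measure the spread between these replicate libraries, and a difference between the lines cannot be told apart from one between transductions.

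MYC proteins activate transcription only as dimers with MAX, and these dimers bind the E-box, CACGTG. MXD proteins and MNT also dimerise with MAX, compete for the same sites and recruit the SIN3 and histone deacetylase corepressor, so the balance of the partners sets whether an E-box gene is activated or repressed. MLX is the partner of MONDOA and ChREBP and can also pair with MXD1, MXD4 and MNT, which ties nutrient sensing to the same sites.

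The promoters are shown for *Mxd1*, the MXD gene whose transcript rose most with romidepsin, for *Mnt*, the repressor whose transcript fell, and for *Max*, the shared partner. They are given as the sense strand from 250 bases before to 50 bases after the RefSeq transcription start (GRCm38.p6), 5′ to 3′, with any E-box in capitals. The *Mxd1* window is chr6:86669110-86669409 on the minus strand, the *Mnt* window chr11:74830674-74830973 on the plus strand, and the *Max* window chr12:76962199-76962498 on the minus strand, where the RefSeq start lies upstream of the GENCODE start. Gene positions elsewhere are from GENCODE M21 on GRCm38.
Mxd1: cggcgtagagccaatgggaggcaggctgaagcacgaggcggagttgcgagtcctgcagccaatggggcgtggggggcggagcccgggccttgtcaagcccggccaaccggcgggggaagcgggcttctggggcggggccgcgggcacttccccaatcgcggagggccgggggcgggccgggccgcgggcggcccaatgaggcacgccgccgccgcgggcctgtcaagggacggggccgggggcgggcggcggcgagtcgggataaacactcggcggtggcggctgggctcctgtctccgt
Mnt: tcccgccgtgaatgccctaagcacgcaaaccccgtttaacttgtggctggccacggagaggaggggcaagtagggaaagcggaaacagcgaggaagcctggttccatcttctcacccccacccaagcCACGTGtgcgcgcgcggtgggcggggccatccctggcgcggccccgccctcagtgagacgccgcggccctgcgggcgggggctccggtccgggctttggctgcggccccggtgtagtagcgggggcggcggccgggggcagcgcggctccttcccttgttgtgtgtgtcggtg
Max: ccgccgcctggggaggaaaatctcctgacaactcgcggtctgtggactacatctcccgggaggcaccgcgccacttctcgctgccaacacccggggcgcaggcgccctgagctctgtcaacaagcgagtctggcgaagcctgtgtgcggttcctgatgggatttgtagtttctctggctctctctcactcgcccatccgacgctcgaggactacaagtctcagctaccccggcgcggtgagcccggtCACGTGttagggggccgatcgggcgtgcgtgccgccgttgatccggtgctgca
The E-box CACGTG reads the same on both strands. It lay 123 bases before the start of *Mnt* and 3 bases before that of *Max*, and none was in the *Mxd1* window. Windows were matched for 9 of the 10 members, not for *Myc*, and 4 of these 9 genes held an E-box: *Mnt*, *Max*, *Mlx* at 40 bases and *Mxd4* at 219 bases before the start. These 9 genes have 11 windows, of which 4 held an E-box. Of 32851 promoter windows of the same length, 7.15% held one. TGACNNNGC, the core of the antioxidant response element that NRF2 binds as a dimer with small MAF proteins, was searched on both strands. It occurred in 5 of the 9 genes, *Mxd1*, *Mxd3*, *Mxi1*, *Max* and *Mlx*. By window it occurred in 5 of the 11 member windows and in 12.4% of all windows. In *Max* the E-box overlaps one of its 2 matches to that core. Of the members with an E-box, *Mnt* fell and *Mlx* and *Max* rose with romidepsin in both lines. *Mxd4* rose in NRF2 cells and was not called in EV cells. Whether a motif has a part in the direction of change was not tested, and a match is a description of the letters only.

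The libraries held 16842824 to 28003010 estimated counts, so that 3 counts, the floor used here for detection in 1 library, corresponded to 0.105 to 0.182 CPM (estimated counts scaled to a common TMM-adjusted library size). *Nfe2l2*, which encodes NRF2, averaged 349 ± 13.8 CPM in NRF2 cells with romidepsin and 96.3 ± 2.90 CPM in EV cells with romidepsin, and 305 ± 40.7 CPM in NRF2 cells with DMSO and 102 ± 1.37 CPM in EV cells with DMSO (SD, n = 3 each), as the labels state. The third NRF2 library with DMSO stood apart: it differed from the average of its group's other libraries by 0.594 (root mean square over genes, log2), against 0.325 to 0.487 for the other 11 libraries. Of the 8 epithelial and lung markers, 6 were tested and the keratins were abundant, with the summed level at 9415 to 9914, 6357 to 6502, 5475 to 6187 and 3748 to 3785 CPM in NRF2 with romidepsin, EV with romidepsin, NRF2 with DMSO and EV with DMSO. Most of that sum was keratins. *Cdh1* went the other way, averaging 227 CPM with romidepsin and 417 CPM with DMSO in NRF2 cells. In EV cells *Cdh1* averaged 246 CPM with romidepsin and 353 CPM with DMSO. *Epcam* averaged 7.23 and 3.59 CPM with romidepsin in NRF2 and EV cells, and 0.066 and 0.031 CPM with DMSO. The lung-defining *Nkx2-1* and *Sftpc* were nearly absent, with 30 and 4 counts over all 12 libraries. The 7 mesenchymal markers, nearly all of the sum being *Vim*, summed to 5199 to 5557 CPM in NRF2 cells with romidepsin and 2889 to 3213 CPM in those with DMSO, and to 6081 to 6159 CPM in EV cells with romidepsin and 3357 to 3511 CPM in those with DMSO. The 7 leukocyte markers summed to 69.96 to 74.4 CPM in NRF2 cells with romidepsin and 4.34 to 4.91 CPM in those with DMSO, and to 49.997 to 55.3 CPM in EV cells with romidepsin and 2.88 to 4.38 CPM in those with DMSO. Most of that sum was *Cd68*, a lysosomal gene, while the defining leukocyte gene *Ptprc* had 75 counts in all. The 4 endothelial markers summed to at most 10.1 CPM in any library. Whether these marker shifts have a part in the values of the network was not tested, and in bulk RNA fewer cells of a type cannot be told apart from less RNA per cell.

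Within the network, romidepsin lowered *Myc* and *Mnt* and raised *Mxd1*, *Mxd3*, *Mxi1*, *Mlx* and *Max* in both lines. In NRF2 cells 7 of the 9 tested genes rose and 2 fell (edgeR quasi-likelihood test, adjusted p under 0.05), where 40.5% of all tested genes rose and 39.3% fell. In EV cells 5 of 9 rose and 2 fell, where 39.1% of all tested genes rose and 37.4% fell. Since 79.8% of all genes in NRF2 cells and 76.5% in EV cells changed, the number of network genes called is close to the background. The median change of the 9 genes was 0.47 (log2) in NRF2 cells and 0.26 in EV cells, beside 0.015 and 0.011 for all tested genes.

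**Figure D1:**
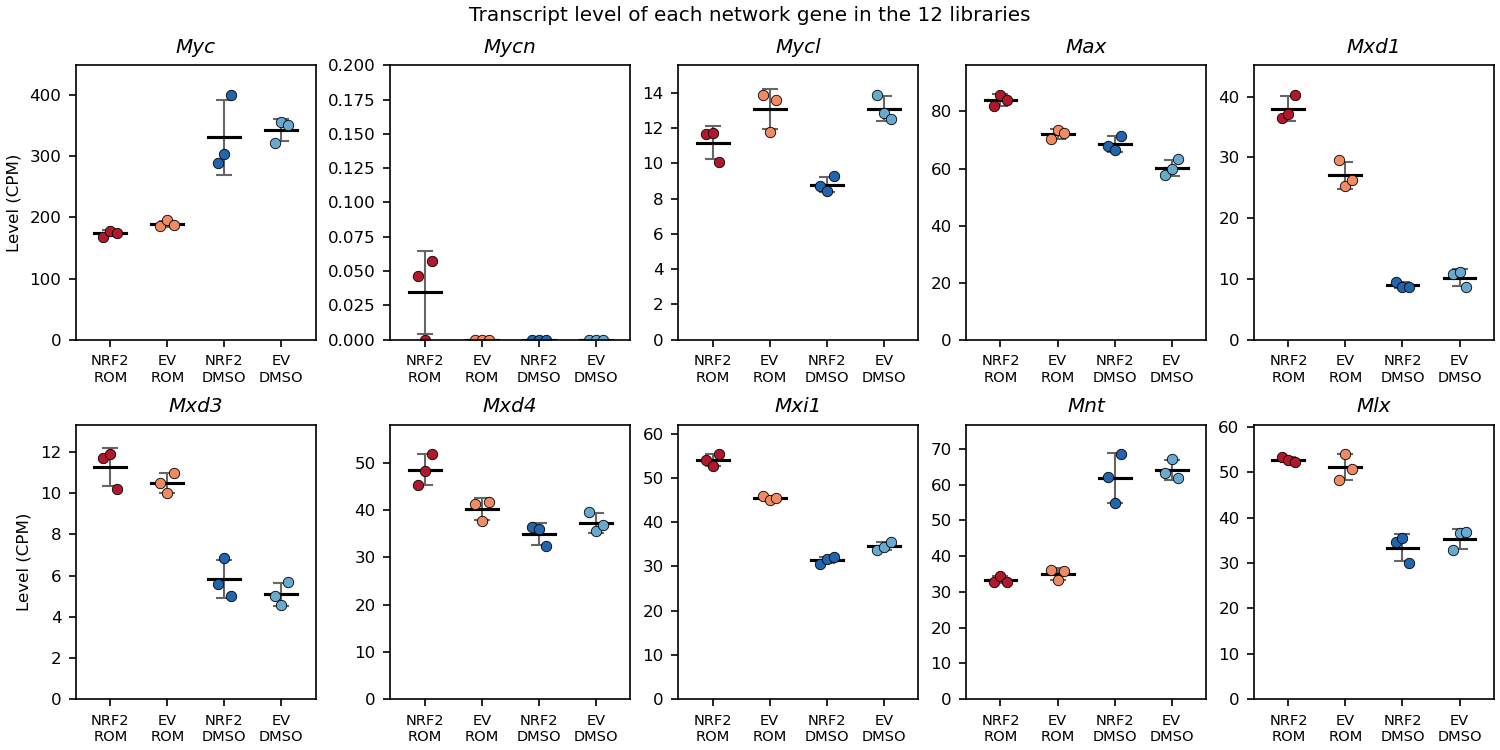
Levels of the 10 network genes in CPM in every library, with each panel having its own axis; points are libraries, horizontal lines the mean and error bars the SD of 3 replicates, in the order NRF2 with romidepsin, EV with romidepsin, NRF2 with DMSO, EV with DMSO. *Myc* and *Mnt* are lower in both romidepsin groups than in both DMSO groups, and *Mxd1* is highest in NRF2 cells with romidepsin.

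*Myc* (chr15:61985391-61990374, plus strand) encodes the founding member of the family, a driver of growth and ribosome production. Its level was 169, 178 and 175 CPM in the NRF2 libraries with romidepsin, against 288, 304 and 401 CPM in the NRF2 libraries with DMSO. In EV cells it was 186, 195 and 187 CPM with romidepsin, against 322, 355 and 351 CPM with DMSO. Every romidepsin library lay below every DMSO library, and the highest value was that of the NRF2 DMSO library that stood apart. *Myc* fell 1.90-fold in NRF2 cells (log2 change -0.93 ± 0.10 SE, edgeR adjusted p 2.02e-06) and 1.81-fold in EV cells (-0.86 ± 0.10, edgeR adjusted p 4.88e-06).

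*Myc* was not called between NRF2 and EV cells: the log2 difference, NRF2 minus EV, was -0.12 ± 0.10 with romidepsin (edgeR adjusted p 0.343) and -0.05 ± 0.10 with DMSO (edgeR adjusted p 0.725). With romidepsin the 3 NRF2 values nevertheless all lay below the 3 EV values, while with DMSO the lines overlapped. These 2 results rest on 1 library: without the third NRF2 DMSO library, which also enters the shared estimate of spread, the difference was -0.14 with romidepsin (edgeR adjusted p 0.00284) and -0.21 with DMSO (edgeR adjusted p 0.000114). With the romidepsin groups fitted alone it was -0.13 (edgeR adjusted p 0.00134).

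*Mycl* (chr4:122995652-123002485, plus strand), which encodes the L-MYC paralogue, was called in NRF2 cells but not in EV cells, and the difference between the lines was not. It stood at 11.7, 11.7 and 10.1 CPM in NRF2 libraries with romidepsin, against 8.70, 8.41 and 9.27 CPM in NRF2 libraries with DMSO, and rose 1.28-fold (log2 change 0.36 ± 0.10, edgeR adjusted p 0.00247). In EV cells it stood at 13.9, 11.8 and 13.6 CPM with romidepsin and at 13.9, 12.8 and 12.5 CPM with DMSO, which overlapped (0.0018 ± 0.091, edgeR adjusted p 0.987). With DMSO the 3 NRF2 libraries were all below the 3 EV libraries, a log2 difference of -0.58 ± 0.10 (edgeR adjusted p 0.000126). The romidepsin effect in NRF2 cells minus that in EV cells was 0.35 ± 0.13 and did not pass (edgeR adjusted p 0.0802); without the third NRF2 DMSO library it did (edgeR adjusted p 0.0443). *Mycl* was also past the threshold between the lines with romidepsin in that fit (edgeR adjusted p 0.0256), against 0.0575 with all libraries.

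*Mycn* (chr12:12936093-12941914, minus strand), the paralogue best known from neuroblastoma, had no count in 10 of 12 libraries and 1 count in each of the other 2, both of them NRF2 libraries with romidepsin. Its level was thus below the floor of 3 counts in every library, and no fold change was computed.

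*Max* (chr12:76937269-76962201, minus strand) encodes the obligate partner of both activators and repressors. Its level was 81.9, 85.9 and 84.2 CPM in NRF2 cells with romidepsin, 70.2, 73.5 and 72.4 CPM in EV cells with romidepsin, 67.7, 66.5 and 71.6 CPM in NRF2 cells with DMSO, and 57.6, 60.0 and 63.2 CPM in EV cells with DMSO. NRF2 libraries were above EV libraries under either treatment, and romidepsin libraries above DMSO libraries in either line. The changes were small: romidepsin raised *Max* by 0.29 ± 0.05 in NRF2 cells (log2, edgeR adjusted p 2.27e-05) and by 0.26 ± 0.05 in EV cells (log2, edgeR adjusted p 0.000131). NRF2 cells exceeded EV cells by 0.22 ± 0.05 with romidepsin (log2, edgeR adjusted p 0.00115) and by 0.18 ± 0.05 with DMSO (log2, edgeR adjusted p 0.00709). The effect of romidepsin did not detectably differ between the lines (0.04 ± 0.07, edgeR adjusted p 0.767).

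*Mxd1* (chr6:86647042-86669161, minus strand) encodes MXD1 (MAD1), the MXD protein classically induced when cells leave the cycle and differentiate. It stood at 36.5, 37.2 and 40.3 CPM in NRF2 cells with romidepsin, against 9.54, 8.64 and 8.73 CPM in NRF2 cells with DMSO. In EV cells it stood at 29.6, 25.4 and 26.2 CPM with romidepsin, against 10.9, 11.1 and 8.60 CPM with DMSO. No romidepsin library overlapped a DMSO library, and with romidepsin every NRF2 library was above every EV library. The rise was 4.23-fold in NRF2 cells (log2 change 2.08 ± 0.09, edgeR adjusted p 8.80e-13) and 2.68-fold in EV cells (log2 change 1.42 ± 0.09, edgeR adjusted p 2.55e-10), the largest of the 9 tested members in each line. The rise was larger in NRF2 cells by 0.66 ± 0.13 (log2, edgeR adjusted p 0.00290), and this difference remained past the threshold in all 21 alternative fits, where it ranged over 0.60 to 0.78. With romidepsin NRF2 cells were 0.49 ± 0.08 above EV cells (log2, edgeR adjusted p 0.000152), while with DMSO the lines overlapped (-0.17 ± 0.11, edgeR adjusted p 0.225).

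*Mxi1* (chr19:53310518-53375810, plus strand) encodes the MXD family protein MXI1 (MXD2) and is also known as a hypoxia-responsive gene. Its level was 54.0, 52.6 and 55.4 CPM in NRF2 cells with romidepsin and 45.9, 45.0 and 45.4 CPM in EV cells with romidepsin. With DMSO it was 30.6, 31.7 and 32.1 CPM in NRF2 cells and 33.8, 34.4 and 35.6 CPM in EV cells. The 4 groups did not overlap. Romidepsin raised it 1.71-fold in NRF2 cells (log2 change 0.78 ± 0.05, edgeR adjusted p 7.59e-11) and 1.31-fold in EV cells (0.39 ± 0.05, edgeR adjusted p 1.05e-06), and the effects differed by 0.39 ± 0.07 (edgeR adjusted p 0.00106; past the threshold in all 21 alternative fits). The line difference was 0.25 ± 0.05 with romidepsin (log2, edgeR adjusted p 0.000372) and had the opposite sign with DMSO, -0.14 ± 0.05 (edgeR adjusted p 0.0406). The DMSO call was lost in 12 of the 22 alternative fits, 8 of which each leave out 1 library.

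*Mxd4* (chr5:34173883-34187720, minus strand) encodes a further MXD repressor. It stood at 45.4, 48.2 and 51.9 CPM in NRF2 cells with romidepsin, against 36.5, 35.96 and 32.4 CPM in NRF2 cells with DMSO, and rose 1.38-fold (log2 change 0.47 ± 0.07, edgeR adjusted p 4.64e-06). In EV cells the 41.4, 37.6 and 41.8 CPM with romidepsin overlapped the 39.5, 35.5 and 36.8 CPM with DMSO (0.11 ± 0.07, edgeR adjusted p 0.146). The effects differed by 0.36 ± 0.10 (log2, edgeR adjusted p 0.0167), but without the second EV romidepsin library the difference was 0.31 (edgeR adjusted p 0.0586). With romidepsin NRF2 cells were 0.27 ± 0.07 above EV cells (log2, edgeR adjusted p 0.00312), and with DMSO the difference was -0.09 ± 0.07 (edgeR adjusted p 0.341).

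*Mxd3* (chr13:55325168-55329823, minus strand) encodes the MXD protein that, unlike the others, is known from proliferating cells in S phase. It was 11.7, 11.9 and 10.2 CPM in NRF2 cells with romidepsin, against 5.60, 6.85 and 5.03 CPM in NRF2 cells with DMSO, and 10.5, 10.0 and 11.0 CPM in EV cells with romidepsin, against 5.02, 4.56 and 5.67 CPM in EV cells with DMSO. It rose 1.92-fold in NRF2 cells (log2 change 0.94 ± 0.12, edgeR adjusted p 8.62e-07) and 2.05-fold in EV cells (log2 change 1.03 ± 0.12, edgeR adjusted p 4.63e-07). The lines overlapped under either treatment, and the difference between the effects was -0.09 ± 0.17 (edgeR adjusted p 0.772).

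*Mnt* (chr11:74830920-74845725, plus strand) encodes the most widely expressed of the MAX-binding repressors and was the only one of the 5 repressor genes among the members to fall. It stood at 32.8, 34.5 and 32.9 CPM in NRF2 cells with romidepsin, against 62.1, 54.8 and 68.6 CPM in NRF2 cells with DMSO, and at 36.2, 33.2 and 35.9 CPM in EV cells with romidepsin, against 63.3, 67.3 and 61.8 CPM in EV cells with DMSO. The romidepsin libraries lay below all DMSO libraries, and the lines overlapped under either treatment. *Mnt* fell 1.84-fold in NRF2 cells (log2 change -0.88 ± 0.07, edgeR adjusted p 2.27e-09) and 1.83-fold in EV cells (-0.87 ± 0.07, edgeR adjusted p 3.52e-09), a difference between lines of -0.01 ± 0.10 (edgeR adjusted p 0.957).

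*Mlx* (chr11:101087277-101092207, plus strand) encodes the partner of MONDOA. It stood at 53.5, 52.7 and 52.4 CPM in NRF2 cells with romidepsin, against 34.6, 35.6 and 30.0 CPM in NRF2 cells with DMSO, and at 48.4, 54.1 and 50.8 CPM in EV cells with romidepsin, against 32.8, 36.5 and 36.8 CPM in EV cells with DMSO. Every romidepsin library lay above every DMSO library, and the lines overlapped. *Mlx* rose 1.58-fold in NRF2 cells (log2 change 0.66 ± 0.07, edgeR adjusted p 5.49e-08) and 1.44-fold in EV cells (log2 change 0.53 ± 0.07, edgeR adjusted p 1.05e-06).

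**Figure D2:**
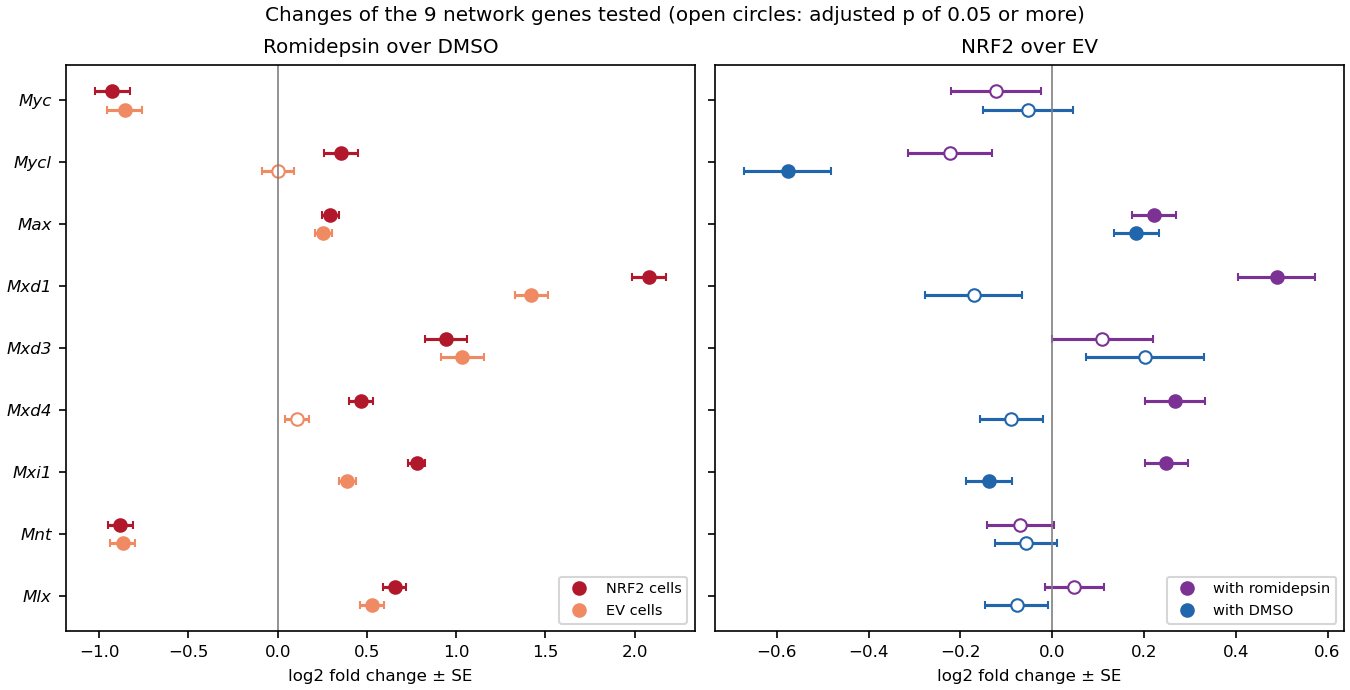
Log2 fold changes of the 9 tested members from edgeR, with bars of 1 SE, for romidepsin over DMSO in each line and NRF2 over EV in each treatment; filled points have adjusted p under 0.05. *Mxd1* rises most in both lines, *Myc* and *Mnt* fall by similar amounts in both, and *Mxd1*, *Mxd4* and *Mxi1* rise more in NRF2 cells.

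Between the lines, 4 of the 9 members were higher and 0 lower in NRF2 cells with romidepsin, where 23.0% of all tested genes were higher and 22.4% lower, 45.4% in all; the 4 were *Max*, *Mxd1*, *Mxd4* and *Mxi1*. At an adjusted p under 0.05, edgeR, DESeq2, limma-voom and limma-trend each called 0 members lower with romidepsin; at an unadjusted p under 0.05 edgeR had 1. With DMSO 1 member was higher (*Max*) and 2 lower (*Mycl* and *Mxi1*), where 19.3% of all tested genes were higher and 16.9% lower, 36.3% in all. The effect of romidepsin differed between the lines for 3 members, each with the larger effect in NRF2 cells, where 5.53% of all tested genes had a higher and 10.2% a lower effect there, 15.8% in all. These 3, *Mxd1*, *Mxd4* and *Mxi1*, encode MXD family repressors. The comparisons share libraries: each DMSO group enters the romidepsin effect of its line and the line difference with DMSO.

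On a per-length scale the members can be ranked against each other. In EV cells with DMSO the mean level in CPM per kb of the longest coding transcript was 147 for *Myc*, 31.0 for *Max*, 18.0 for *Mlx*, 14.0 for *Mnt*, 9.62 for *Mxd4*, 6.87 for *Mxi1*, 3.83 for *Mxd3*, 3.74 for *Mycl*, 2.18 for *Mxd1* and 0 for *Mycn*. Of these neighbours only *Mxd3* and *Mycl* overlapped over the 3 libraries. NRF2 cells with DMSO had the same order. In NRF2 cells with romidepsin the levels were 74.4 CPM per kb for *Myc*, 43.2 for *Max*, 26.9 for *Mlx*, 12.5 for *Mxd4*, 10.7 for *Mxi1*, 8.51 for *Mxd3*, 8.14 for *Mxd1*, 7.27 for *Mnt*, 3.19 for *Mycl* and 0.013 for *Mycn*, and *Mxd3* and *Mxd1* were the only overlapping neighbours. *Mxd1*, on this length the lowest of the tested members with DMSO, stood above *Mnt* there. In EV cells with romidepsin *Mxd1*, at 5.80 CPM per kb, stood below *Mnt*, at 7.65, and *Mxd3* and *Mnt* overlapped.

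Summed per length, the MYC paralogues outweighed the repressors (*Mxd1*, *Mxd3*, *Mxd4*, *Mxi1* and *Mnt*) in every library, but less so with romidepsin. The ratio of MYC paralogues to repressors was 1.63, 1.68 and 1.62 in NRF2 cells with romidepsin, against 3.56, 3.83 and 4.92 in NRF2 cells with DMSO. In EV cells it was 1.99, 2.24 and 2.02 with romidepsin, against 3.85, 4.27 and 4.26 with DMSO. Romidepsin libraries were below all DMSO libraries, and with romidepsin NRF2 libraries were below all EV libraries; with DMSO the lines overlapped. *Myc* alone made up 37.7%, 38.5% and 38.2% of the summed network level in NRF2 cells with romidepsin and 57.7%, 59.3% and 65.5% with DMSO, and 42.7%, 43.7% and 42.4% in EV cells with romidepsin and 61.3%, 62.9% and 62.3% with DMSO. The ratio depends on the length used: with the median coding transcript its group means were 1.09, 1.40, 2.80 and 2.77 in NRF2 with romidepsin, EV with romidepsin, NRF2 with DMSO and EV with DMSO; the 2 lengths differ most for *Mxi1*, whose 8 coding transcripts have a longest of 5036 and a median of 1491 bases. With the median length *Mxi1* moves up the order and *Mxd1* is no longer lowest with DMSO: *Mxd1* and *Mycl* were then at 3.53 and 2.67 CPM per kb in NRF2 cells with DMSO, and *Mxd1*, *Mycl* and *Mxd3* at 4.01, 3.98 and 3.83 CPM per kb in EV cells with DMSO. *Mxd1* stayed above *Mnt* in NRF2 cells with romidepsin on either length.

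**Figure D3:**
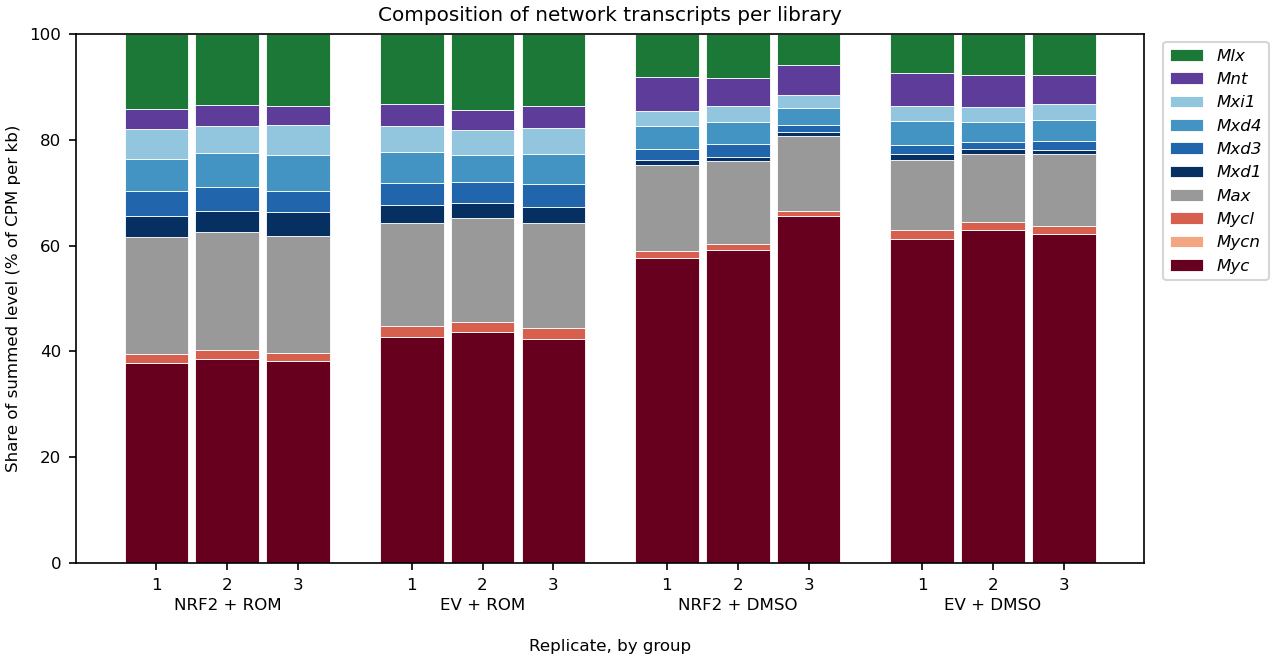
Share of each member in the summed level of the 10 genes (CPM per kb of the longest coding transcript), 1 stacked bar per library, in the order NRF2 with romidepsin, EV with romidepsin, NRF2 with DMSO, EV with DMSO. *Myc* takes 37.7% to 43.7% of the sum in romidepsin libraries and 57.7% to 65.5% in DMSO libraries, and the *Mxd1* band widens with romidepsin.

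The loci of several members overlap those of other genes. The overlaps given are between whole gene spans, introns included. On opposite strands, *Mxd3* overlaps *Prelid1* by 105 bases, *Mlx* overlaps *Psmc3ip* by 385 and *Mxd4* overlaps Gm42846 by 1001. *Mxi1* overlaps AC133451.2 by 5146 and Gm10197 by 201, also on the opposite strand. On the same strand, *Max* overlaps the model Gm47218 by 1319 bases and *Mxd1* overlaps Gm44292 by 2364. Whether the counting used strand is not given in the sources used here. Whether the overlaps lie in transcribed sequence that the genes share was not examined. If they do, reads of opposite-strand partners could be mixed in unstranded counting, and those of same-strand partners under any strand setting. The values of these 6 members, *Mxd1* among them, may be uncertain to that extent.

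The genes whose pattern over the 4 group means was most like that of a member were found by the root mean square difference of centred log2 CPM. Nearest to *Myc* were *Kdm6a* (0.0082), *Fam193b* (0.011) and *Top3b* (0.013), and nearest to *Mnt* were *Fam193b* (0.0098), *Phf21a* (0.012) and *Dgkd* (0.016). For *Mxd1* the nearest were *Hacl1* (0.030), *Akr1b3* (0.057) and *Rab36* (0.062). The measure is not scaled to the size of a change, and *Mxd1* had the largest rise of the tested members, so its larger distances do not mark its pattern as particular. *Mxi1* lay nearest to *Cstb* (0.019), *Mxd4* to *Bloc1s4* (0.0081), *Mxd3* to *Tchp* (0.025), *Mycl* to *Itgb5* (0.0082), *Max* to *Serinc1* (0.016) and *Mlx* to *Brap* (0.0063). With 4 group means many genes lie close to any pattern.

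Of the further proteins that join the network, *Mlxip* (MONDOA) and *Mga*, which encodes a MAX-binding repressor, both fell in each line. *Mlxipl* (ChREBP), with 63 counts over all 12 libraries, was left out by the filter on low counts; with no filter and with DESeq2 it was called higher with romidepsin in each line. *Mga* averaged 71.0 ± 1.31 CPM with romidepsin and 109 ± 10.5 CPM with DMSO in NRF2 cells (log2 change -0.61 ± 0.07, edgeR adjusted p 4.42e-07) and its log2 change in EV cells was -0.62 ± 0.07 (edgeR adjusted p 4.59e-07). *Mlxip* fell by 0.24 ± 0.06 in NRF2 cells (log2, edgeR adjusted p 0.00153) and by 0.40 ± 0.06 in EV cells (log2, edgeR adjusted p 7.78e-06); the NRF2 call was lost under upper-quartile scaling (adjusted p 0.0658) and with library size alone (adjusted p 0.161).

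The 2 classical targets of MLX and MONDOA, *Txnip* and *Arrdc4*, which encode arrestin-domain proteins that limit glucose uptake, rose in both lines. *Txnip* was at 257, 230 and 228 CPM in NRF2 cells with romidepsin and 151, 140 and 154 CPM in EV cells with romidepsin, against 47.5, 50.6 and 48.7 CPM in NRF2 cells with DMSO and 40.3, 35.0 and 39.7 CPM in EV cells with DMSO. It rose 4.87-fold in NRF2 cells (log2 change 2.28 ± 0.06, edgeR adjusted p 1.72e-15) and 3.87-fold in EV cells (log2 change 1.95 ± 0.06, edgeR adjusted p 2.40e-14), a difference of 0.33 ± 0.09 (edgeR adjusted p 0.0159) that was lost without the second EV romidepsin or the first NRF2 romidepsin library. *Arrdc4* was scarce in NRF2 cells, at 0.766 ± 0.037 CPM with romidepsin and 0.242 ± 0.229 CPM with DMSO (SD, n = 3 each), and at 5.34 ± 0.64 CPM with romidepsin and 3.08 ± 0.14 CPM with DMSO in EV cells. With 1 and 3 counts in 2 of the 3 NRF2 DMSO libraries, its fold changes there rest on few reads. Between the lines the 2 targets went opposite ways: with romidepsin *Txnip* was 1.61-fold higher in NRF2 cells (edgeR adjusted p 9.71e-08) and *Arrdc4* 6.87-fold lower (edgeR adjusted p 1.18e-07).

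Of 17 genes for the SIN3 and HDAC corepressor that MXD proteins recruit, 6 rose and 6 fell in NRF2 cells, 35.3% each way, where 40.5% of all tested genes rose and 39.3% fell. In EV cells 5 rose and 6 fell, 29.4% and 35.3% of the list, where 39.1% of all tested genes rose and 37.4% fell. These shares are near or below those of all genes, and the median log2 changes were -0.056 and -0.097. *Hdac1*, a deacetylase of the complex, rose 1.83-fold in NRF2 cells (adjusted p 2.89e-12, edgeR) and 1.75-fold in EV cells (edgeR adjusted p 1.29e-11). *Ncor1*, a corepressor scaffold, fell 2.39-fold in NRF2 cells (adjusted p 2.87e-12, edgeR) and 2.28-fold in EV cells (edgeR adjusted p 8.28e-12). The histone-binding *Rbbp7* fell 1.99-fold in NRF2 cells and 1.70-fold in EV cells, with edgeR adjusted p of 4.32e-13 and 1.93e-11.

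Some MYC coactivators bring acetylation or chromatin remodelling to MYC sites. Of 18 genes listed for MYC coactivators and MIZ1 (*Zbtb17*), 4 rose and 12 fell in NRF2 cells. In EV cells 4 rose and 14 fell (median log2 -0.43 in NRF2 and -0.31 in EV cells). The shares that fell were 66.7% and 77.8%, beside 39.3% and 37.4% of all tested genes. The acetyltransferase gene *Kat2a* (GCN5) was at 66.6 ± 1.41 CPM with romidepsin and 164 ± 7.05 CPM with DMSO in NRF2 cells, a 2.46-fold fall (edgeR adjusted p 1.35e-13), and fell 2.36-fold in EV cells (edgeR adjusted p 3.55e-13). *Ep300* fell 2.22-fold and *Ruvbl1* 2.26-fold in NRF2 cells, with edgeR adjusted p of 2.79e-11 and 4.32e-13. *Mycbp*, whose product binds MYC, went the other way, rising 2.12-fold in NRF2 cells (adjusted p 2.72e-10, edgeR) and 1.83-fold in EV cells (edgeR adjusted p 7.38e-09).

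Of 20 genes for MYC protein turnover, 7 rose and 11 fell in NRF2 cells and 5 rose and 12 fell in EV cells. That is 35.0% higher and 55.0% lower in NRF2 cells, beside 40.5% and 39.3% of all tested genes, and 25% higher and 60.0% lower in EV cells, beside 39.1% and 37.4%. *Aurka*, a mitotic kinase known to stabilise MYC family proteins, was at 33.6 ± 1.22 CPM with romidepsin and 133 ± 5.51 CPM with DMSO in NRF2 cells, a 3.96-fold fall (edgeR adjusted p 2.86e-15), and fell 2.58-fold in EV cells (edgeR adjusted p 3.67e-13). *Set*, whose product inhibits the phosphatase PP2A, fell 3.43-fold in NRF2 cells (adjusted p 1.95e-15, edgeR) and 2.57-fold in EV cells (edgeR adjusted p 7.54e-14). *Pim2*, a kinase known to stabilise MYC, rose 4.87-fold in NRF2 cells (adjusted p 3.13e-15, edgeR) and 4.36-fold in EV cells (edgeR adjusted p 1.85e-14). Of 16 tested regulators of *Myc* transcription and message, 5 rose and 11 fell in NRF2 cells and 4 rose and 9 fell in EV cells. The shares that fell were 68.8% in NRF2 cells and 56.2% in EV cells, beside the same 39.3% and 37.4% of all tested genes. *Zfp36*, which encodes the message-destabilising protein tristetraprolin, rose 4.87-fold in NRF2 cells (adjusted p 3.83e-14, edgeR) and 4.13-fold in EV cells (edgeR adjusted p 5.83e-13). In NRF2 cells *Stat3* rose 2.71-fold, with an edgeR adjusted p of 1.13e-14. The insulator factor gene *Ctcf* fell 2.86-fold there, with an edgeR adjusted p of 2.24e-14.

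Genes known as MYC-induced were mostly lower with romidepsin. Of 56 nucleolar and growth genes, 6 rose and 47 fell in NRF2 cells, 83.9% of the list lower beside 39.3% of all tested genes, and 5 rose and 43 fell in EV cells, 76.8% lower beside 37.4% (median log2 -0.80 and -0.65). *Gnl3*, encoding nucleostemin, was at 38.4 ± 1.78 CPM with romidepsin and 146 ± 4.55 CPM with DMSO in NRF2 cells, a 3.81-fold fall (edgeR adjusted p 6.32e-16), and fell 2.57-fold in EV cells (edgeR adjusted p 5.79e-14). *Utp20* and *Dkc1*, for ribosomal RNA processing and modification, fell 3.91-fold and 3.84-fold in NRF2 cells, with edgeR adjusted p of 1.04e-15 and 4.64e-12. *Odc1*, the first enzyme of polyamine synthesis and a classical MYC target, went against the list: it averaged 1415 ± 112 CPM with romidepsin and 722 ± 35.7 CPM with DMSO in NRF2 cells, a 1.96-fold rise (edgeR adjusted p 6.43e-11), and rose 1.997-fold in EV cells (edgeR adjusted p 6.39e-11). Of 28 metabolic genes, 4 rose and 24 fell in NRF2 cells and 4 rose and 22 fell in EV cells, so that 85.7% and 78.6% fell, beside the same 39.3% and 37.4% (median log2 -0.66 and -0.50). The mitochondrial one-carbon enzyme genes *Shmt2* and *Mthfd2* fell 3.87-fold and 3.19-fold in NRF2 cells (adjusted p 1.61e-15 and 4.10e-14, edgeR), while the glucose transporter gene *Slc2a1* rose 1.89-fold (edgeR adjusted p 1.05e-11).

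Many of these genes were also lower in NRF2 than in EV cells with romidepsin. In the nucleolar list 2 were higher and 32 lower, 57.1% of the list beside 22.4% of all tested genes, and in the metabolic list 3 were higher and 18 lower, 64.3% of the list; 22 nucleolar and 7 metabolic genes were not called. With DMSO 7 nucleolar genes were higher and 10 lower, 17.9% of the list lower beside 16.9% of all tested genes, and 1 metabolic gene was higher and 7 lower, 25% of the list lower. Of these DMSO counts, without the third NRF2 DMSO library 19 nucleolar genes were lower and 4 metabolic genes higher. The DMSO counts over all genes moved too. They were 2608 higher and 2287 lower with all libraries. Leaving out 1 library at a time they ranged over 2244 to 3089 higher and 1865 to 2717 lower. The effect of romidepsin was more negative in NRF2 cells for 15 of the 56 nucleolar and 8 of the 28 metabolic genes, 26.8% and 28.6% of the lists beside 10.2% of all tested genes. Leaving out 1 library at a time these counts ranged over 11 to 26 and 4 to 15, the highest without the third NRF2 DMSO library, while the count over all genes, 1380, ranged over 959 to 2127, also highest without that library. Of 13 tested genes known as MYC-repressed, 7 rose and 4 fell in each line, 53.8% and 30.8% of the list, beside 40.5% and 39.3% of all tested genes in NRF2 cells and 39.1% and 37.4% in EV cells. Their median log2 change was 1.11 in NRF2 and 1.17 in EV cells. The 7 include 1 gene, *Cdkn1c*, with 106 counts in NRF2 libraries with romidepsin and 0 in those with DMSO. *Cdkn1c* was tested only because of its romidepsin libraries and had to differ, so the 53.8% in NRF2 cells counts a call fixed in advance. Its bound, from a floor of 3 counts over the DMSO group, was 5.05 (log2). That bound lies above the list median, so the NRF2 median of 1.11 could not change with it, and this is no check on the median. *Cdkn1a*, encoding the cell-cycle inhibitor p21, was at 54.2 ± 2.99 CPM with romidepsin and 8.70 ± 0.23 CPM with DMSO in NRF2 cells, a 6.21-fold rise (edgeR adjusted p 2.56e-14), and rose 10.6-fold in EV cells (edgeR adjusted p 1.25e-14). *Ndrg1* and *Ndrg2* rose 7.64-fold and 7.85-fold in NRF2 cells (adjusted p 1.02e-13 and 2.75e-13, edgeR), while *Cdkn2b*, encoding the inhibitor p15, fell 1.58-fold there (edgeR adjusted p 1.21e-09) and 1.87-fold in EV cells (edgeR adjusted p 1.93e-11).

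**Figure D4:**
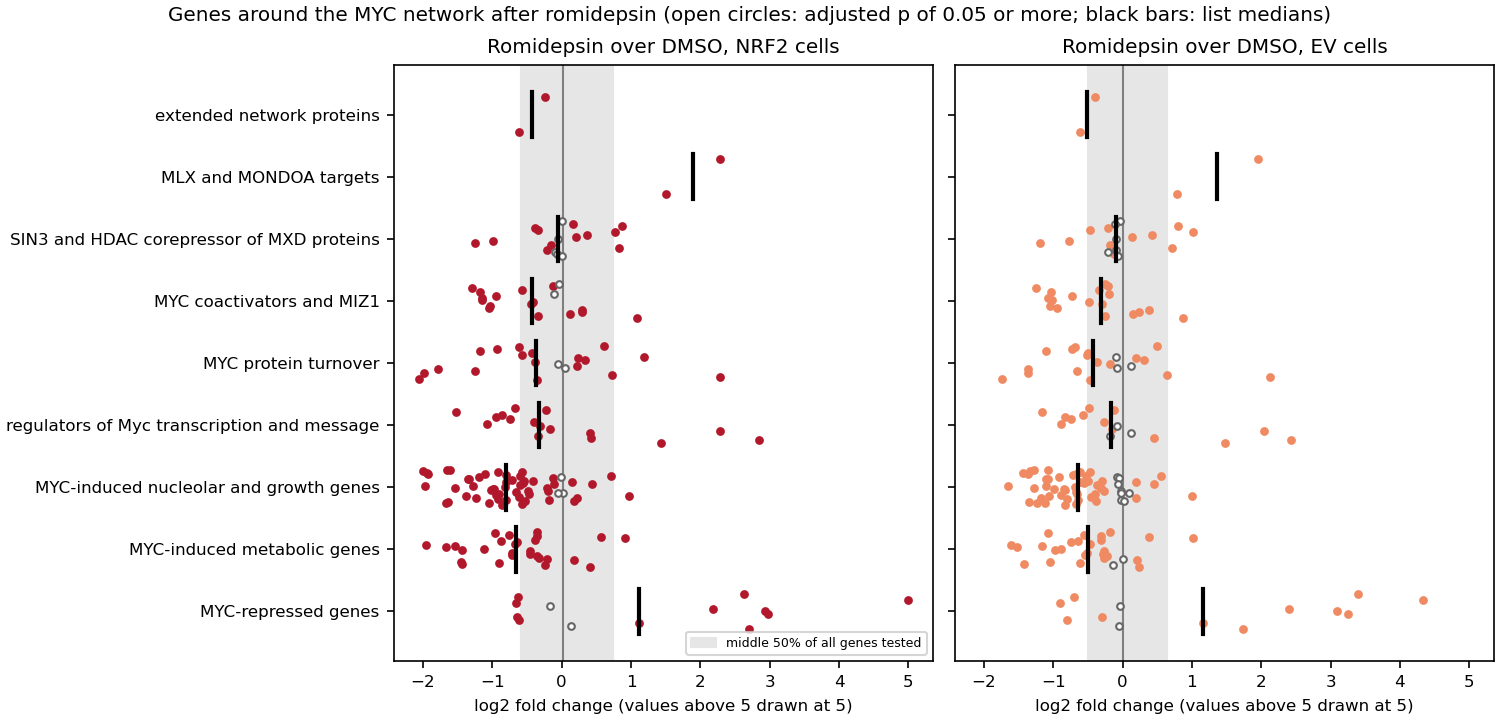
Log2 fold change of romidepsin over DMSO in NRF2 cells (left) and EV cells (right) for every tested gene of the 9 lists around the network; filled circles have an edgeR adjusted p under 0.05, open circles do not, black bars are list medians and the grey band holds the middle 50% of all tested genes. The nucleolar and metabolic lists lie mostly left of 0, with medians of -0.80 and -0.66 in NRF2 cells; 1 MYC-repressed gene with no count in NRF2 DMSO libraries is drawn at 5.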

How the data were processed

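Poly(A)-selected RNA of 12 KP1 libraries, 3 in each of 4 groups taken from the labels, was measured by RNA-seq. Per the submitters' processing notes, bcl2fastq 2.19, kallisto 0.44.0, DESeq2 and the genome build GRCm38 were used. The authors deposited a table of estimated counts per gene, whole numbers that needed no rounding, and a second table whose normalized signal equals those counts divided by DESeq2 size factors. The stranding of the reads is not given in the sources used here. From the estimated counts, edgeR 4.0.16 (R 4.3.3) fitted 1 mean per group in 1 quasi-likelihood model of all 12 libraries with TMM scaling, filterByExpr and robust dispersion, leaving 13502 genes and 8 residual degrees of freedom. The 5 contrasts were romidepsin over DMSO in each line, NRF2 over EV in each treatment, and the difference between the romidepsin effects; p-values were adjusted by Benjamini-Hochberg over all tested genes and called under 0.05. A standard error is the log2 fold change divided by the root of F. CPM are TMM-scaled, and CPM per kb divides by the longest coding GENCODE M21 transcript. Alternatives were RLE, upper-quartile and no scaling, no filter, 1 CPM in 3 libraries, DESeq2 1.42.0, limma-voom and limma-trend (limma 3.58.1; log2 of the deposited signal plus a pseudocount of 1), a replicate block, the compared groups alone, and leaving out each library.

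The members and the gene lists were chosen with earlier results of these data known; the lists come from general knowledge of the pathway. All members are described. Of each list, genes were eligible to be named if at 1 CPM or more in 1 group and among the 4 called genes that changed most, or if they went furthest against the majority; the text names a selection of these, and any gene of lists under 6. Genes like a member are the 3 with the smallest root mean square difference among tested genes of at least 5 CPM.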

Additional observations from a re-analysis of the deposited data

Results flagged for a closer look

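The effect of romidepsin differed between the lines, by the test of the difference in edgeR, for 3 members and 11 other genes that are named above. Over all tested genes, 5.53% had a higher and 10.2% a lower effect in NRF2 cells, 15.8% in all. Most of the other genes were named for large changes in these same data, so they are not a neutral set. Further genes named above, *Mthfd2* and *Odc1* among them, were not called. Values are the log2 effect in NRF2 cells minus that in EV cells. Among the repressors, *Mxd1* differed by 0.66 (edgeR adjusted p 0.00290), *Mxd4* by 0.36 (edgeR adjusted p 0.0167) and *Mxi1* by 0.39 (edgeR adjusted p 0.00106). Around MLX, *Txnip* differed by 0.33 (edgeR adjusted p 0.0159). *Rbbp7* of the corepressor differed by -0.22 (edgeR adjusted p 0.0165). Among genes of MYC turnover and regulation, *Set* differed by -0.42 (edgeR adjusted p 0.000510), *Aurka* by -0.62 (edgeR adjusted p 6.24e-05) and *Ctcf* by -0.35 (edgeR adjusted p 0.00311). Among MYC-induced genes, *Utp20* differed by -0.32 (edgeR adjusted p 0.00556), *Gnl3* by -0.56 (edgeR adjusted p 3.18e-05), *Dkc1* by -0.51 (edgeR adjusted p 0.00649) and *Shmt2* by -0.34 (edgeR adjusted p 0.00440), so their falls were deeper in NRF2 cells. With DMSO *Gnl3* already stood higher in NRF2 than in EV cells (log2 0.39, edgeR adjusted p 3.11e-06). *Utp20* and *Shmt2* stood lower there (-0.28 and -0.28, edgeR adjusted p 0.000149 and 0.000364), and *Dkc1* was not called (edgeR adjusted p 0.825). With romidepsin NRF2 minus EV was -0.17 for *Gnl3*, -0.60 for *Utp20*, -0.54 for *Dkc1* and -0.61 for *Shmt2*. The MYC-repressed *Cdkn1a* rose less in NRF2 cells, by -0.76 (edgeR adjusted p 0.00192), and *Cdkn2b* fell less there, by 0.25 (edgeR adjusted p 0.0242). *Cdkn1a* averaged 8.70 CPM in NRF2 and 3.78 CPM in EV cells with DMSO, and 54.2 and 41.1 CPM with romidepsin. It was thus higher in NRF2 cells under either treatment (edgeR adjusted p 1.04e-06 and 0.000439). *Cdkn2b* was lower in NRF2 cells with DMSO, at 78.9 against 96.2 CPM (edgeR adjusted p 0.000169). With romidepsin, at 50.2 against 51.5 CPM, its line difference was not called (edgeR adjusted p 0.560). Without single libraries the calls of a difference between the romidepsin effects were lost for *Mxd4*, *Txnip*, *Rbbp7* and *Cdkn2b*.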

How the results depend on the processing

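With NRF2 over EV in DMSO, 2 members were called lower, but 1 with no filter, DESeq2, the replicate block or the compared groups alone, and 1 to 3 leaving out 1 library; *Mxi1* is the call that is lost. With romidepsin, 0 members were lower, but 1 with library size alone, 2 with the compared groups alone, and 0 to 2 leaving out 1 library. Over all genes, 747 differences between the romidepsin effects were higher in NRF2 cells and 1380 lower. Leaving out 1 library these counts ranged over 465 to 921, lowest without the second EV romidepsin library, and 959 to 2127, highest without the third NRF2 DMSO library.

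Reversed signs were all of changes that were not called. *Mycl* in EV cells was -0.010 with no filter, and *Nfe2l2* in EV cells 0.031 under upper-quartile scaling and 0.041 with library size alone. The difference of effects for *Mnt* was 0.0065 with library size alone. Leaving out 1 library, that difference ranged over -0.11 to 0.048 for *Mnt*, -0.0019 to 0.070 for *Max*, -0.19 to 0.037 for *Mxd3* and -0.17 to 0.071 for *Myc*. NRF2 over EV in DMSO ranged over -0.13 to 0.036 for *Mnt* and -0.21 to 0.039 for *Myc*, and romidepsin in EV cells over -0.043 to 0.071 for *Mycl*. The cause was not tested.

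*Mxd4* in EV cells was called under upper-quartile scaling (0.22), library size alone (0.23) and the compared groups alone (0.13), and *Mxd1* between lines in DMSO without the third EV DMSO library (-0.29). Upper-quartile scaling moved the median romidepsin change of all genes to 0.12, and library size alone to 0.15 in NRF2 and 0.13 in EV cells. Under both, 3 corepressor genes fell in EV cells in place of 6; with library size alone 7 regulators of *Myc* fell in NRF2 cells in place of 11. In EV cells limma-trend called 1 of the 2 MLX targets.

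Same-numbered libraries did not deviate together (correlations -0.090 to 0.062; 0 to 5 of 6 libraries in a pair of groups correlated best with their own number). The replicate block gave 637 higher and 1221 lower differences of effects. Depth limits *Mycn* and *Arrdc4*.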
